A study of Mus musculus with 12 samples.

Results

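The piRNA pathway genes are 10 genes whose products make or use piRNAs in germ cells: the PIWI genes *Piwil1*, *Piwil2* and *Piwil4*, the helicase genes *Mov10l1*, *Ddx4* and *Tdrd9*, the scaffold genes *Tdrd1* and *Asz1*, and the cofactor genes *Mael* and *Gtsf1*. They were chosen by symbol, and all 10 were found among the 35976 symbols counted. RNA had been sequenced from embryonic testis of outbred Swiss (RjOrl) mice at E15.5, in 12 libraries that each held the testes of 3 embryos. The 4 groups of 3 libraries were F1 control, F1 *thia*, F3 control and F3 *thia*. *Thia* is thiacloprid, a neonicotinoid insecticide. The pregnant founders of the *thia* line received 6 mg/kg/day by gavage from E6.5 to E15.5, and the founders of the control line received olive oil alone over the same days. F1 *thia* embryos were exposed in the womb, whereas F3 *thia* embryos descended from treated founders through males mated with untreated females. F3 control embryos descended in the same way from founders given oil alone. No group carried a mutation or transgene. The breeding from founders to F3 had been carried out in 2 rounds, and the labels do not give the round or the litters behind a pool, so the p-values measure the spread between pools, which may share parents.

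piRNAs are small RNAs that PIWI proteins carry and that guide the silencing of transposons in germ cells. Precursor transcripts are bound by helicases, cut and trimmed on the surface of mitochondria and in germ granules, where tudor-domain proteins hold the complexes together. In the fetal testis the pathway acts in prospermatogonia, the male germ cells that have stopped dividing, at the time when their DNA is methylated anew. There, *Piwil2* provides the PIWI protein that cuts transposon RNA in the cytoplasm, and *Piwil4* the one that enters the nucleus, where it directs methylation to transposons. *Piwil1* is best known for its role in meiotic and haploid male germ cells after birth.

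The sequence ahead of the start site is shown for 4 of the genes: *Asz1* and *Ddx4*, which had the smallest p-values of the 10 in F1, and *Piwil1* and *Tdrd9*, which held the E-box letters more than once. Each runs from 250 bases before the RefSeq start site up to that site, 5′ to 3′ on the strand of the gene, in the build GRCm38.p6. Capitals mark CACGTG, an E-box that reads the same on both strands, and GGCGGGA, an E2F-like motif searched on both strands. *Asz1* lies on the minus strand (chr6:18109062-18109311), *Ddx4* on the minus strand (chr13:112652311-112652560), *Piwil1* on the plus strand (chr5:128735996-128736245) and *Tdrd9* on the plus strand (chr12:111971309-111971558).
Asz1: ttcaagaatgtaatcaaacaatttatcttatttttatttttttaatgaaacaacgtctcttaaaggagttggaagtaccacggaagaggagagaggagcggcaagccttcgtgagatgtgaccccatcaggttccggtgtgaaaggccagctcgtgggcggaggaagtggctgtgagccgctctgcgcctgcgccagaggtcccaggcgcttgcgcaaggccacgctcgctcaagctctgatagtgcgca
Ddx4: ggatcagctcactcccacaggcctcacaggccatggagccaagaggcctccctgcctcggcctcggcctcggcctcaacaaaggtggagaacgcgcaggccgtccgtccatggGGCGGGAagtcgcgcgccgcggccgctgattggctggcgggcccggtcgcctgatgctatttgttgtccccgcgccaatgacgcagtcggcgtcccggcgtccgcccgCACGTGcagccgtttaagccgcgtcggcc
Piwil1: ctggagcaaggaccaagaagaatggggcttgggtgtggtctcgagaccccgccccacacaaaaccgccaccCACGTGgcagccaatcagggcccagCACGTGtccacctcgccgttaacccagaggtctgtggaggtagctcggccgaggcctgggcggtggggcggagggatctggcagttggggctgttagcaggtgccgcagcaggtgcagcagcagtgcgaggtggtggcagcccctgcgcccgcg
Tdrd9: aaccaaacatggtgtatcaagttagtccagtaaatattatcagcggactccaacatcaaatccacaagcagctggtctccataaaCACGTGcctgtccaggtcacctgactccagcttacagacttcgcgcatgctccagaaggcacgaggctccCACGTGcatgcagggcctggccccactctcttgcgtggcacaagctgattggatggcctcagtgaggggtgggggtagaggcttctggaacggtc

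RefSeq promoter windows of 300 bases, from 250 before to 50 after the start, were found for 9 of the 10 genes, all but *Piwil2*. CACGTG occurred in 6 of the 9 windows, those of *Piwil1*, *Mael*, *Mov10l1*, *Ddx4*, *Tdrd1* and *Tdrd9*, and in 7.15% of all 32851 windows. Counted back from the start site, it began at -29 in *Ddx4*, at -179 and -154 in *Piwil1*, and at -165 and -95 in *Tdrd9*. GGCGGGA occurred in 2 of the 9 windows, those of *Mael* and *Ddx4*, and in 11.3% of all windows. CCAAT, on either strand, occurred in 5 of the 9 and in 37.4% of all, and TGACG, the core of a cAMP response element, in 1 of the 9 and in 20.8% of all. The windows of *Asz1*, *Piwil4* and *Gtsf1* held neither CACGTG nor GGCGGGA. The 9 windows held between 10 and 38 CpG dinucleotides, with a median of 18 against 7 over all windows. A match to these letters is a description of the window and does not show that a factor binds there.

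Library totals lay between 25081647 and 56638738 counts in F1 control, 37867969 and 62786622 in F1 *thia*, 35216128 and 40614301 in F3 control, and 38415415 and 68996146 in F3 *thia*. At this depth the 10 genes had from 120 counts, for *Piwil1* in one F3 *thia* pool, to 24638 counts, for *Mael* in one F1 control pool. Germ cell and Sertoli cell markers were detected in every pool. The generations differed in the summed RNA level of some marker lists. That of 7 blood genes was 4674 to 16801 CPM (counts scaled to a common library total) over the F1 pools and 38303 to 75003 CPM over the F3 pools. That of 5 macrophage genes was 39.4 to 60.7 CPM in F1 and 80.9 to 143 CPM in F3. Skeletal muscle RNA, summed over 8 genes, reached 536 CPM in F1 *thia* pool 2 and at most 231 CPM in any other pool. F3 control pool 3 and F3 *thia* pool 2 were the lowest of their groups in the summed level of 15 germ cell markers, and the F3 counts of genes called, and the values that moved most, are given without them too.

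The 10 genes covered a wide range of expression, which is compared here per length, as CPM per kilobase of exon. *Mael*, which encodes an HMG-box protein needed for transposon silencing, had the highest level in F1 control, 197.9 ± 32.1 CPM per kilobase (SD, n = 3). It was followed by *Ddx4*, the germ cell helicase Vasa, at 73.3 ± 14.6, then by *Gtsf1*, a zinc-finger partner of PIWI proteins, at 54.6 ± 3.34, and *Piwil2* at 54.3 ± 9.10 CPM per kilobase. Next stood *Mov10l1*, the helicase that binds piRNA precursors, at 36.0 ± 8.14, and *Tdrd9*, a tudor-domain helicase, at 31.8 ± 6.09 CPM per kilobase. *Piwil4* at 30.1 ± 12.1, *Tdrd1*, the tudor scaffold that binds *Piwil2* protein, at 23.4 ± 4.73, and *Asz1*, a scaffold on the mitochondrial outer membrane, at 22.5 ± 3.26 CPM per kilobase came next. *Piwil1* was lowest at 3.36 ± 0.615 CPM per kilobase. Only the first and last steps of this order were larger than the spread between pools: *Mael* lay above the other 9 and *Piwil1* below them in every pool, while neighbours from *Ddx4* to *Asz1* overlapped.

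**Figure D1:**
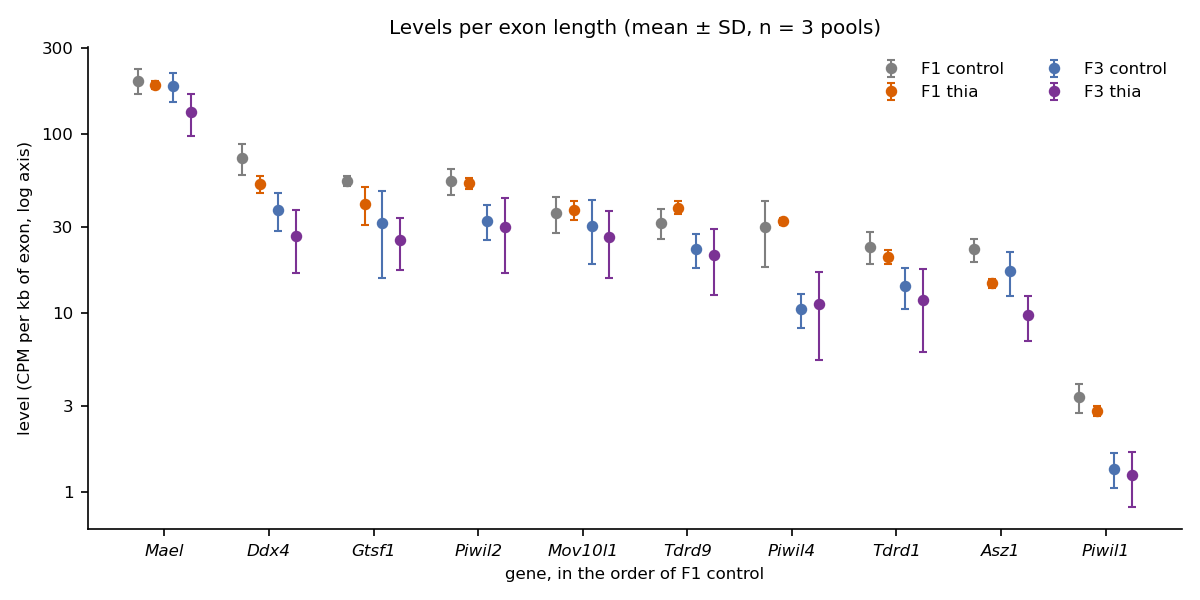
Level of each gene per exon length (vertical log axis, CPM per kb of exon) in the 4 groups, as mean ± SD of 3 pools, in the order of F1 control. *Mael* stood highest and *Piwil1* lowest in each group, and both F3 means lay below both F1 means for every gene except *Asz1*.

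The ends of the order were the same in the other 3 groups, where the mean of *Mael* was 186.8, 184.6 and 132 CPM per kilobase in F1 *thia*, F3 control and F3 *thia*, and that of *Piwil1* was 2.83, 1.34 and 1.24 CPM per kilobase. The middle of the order moved. *Piwil4* stood ahead of *Tdrd1* and *Asz1* in F1 control and F1 *thia* but behind both in F3 control, at 10.5 ± 2.24 CPM per kilobase. *Asz1* was last but one in F1 *thia*, at 14.6 ± 0.915 CPM per kilobase, where it lay apart from both neighbours, and in F3 *thia*, at 9.64 ± 2.74 CPM per kilobase, where its pools overlapped those of *Piwil4* above it. *Piwil4* and *Tdrd9* overlap the genes *Gm10706* and *Rd3l* on the opposite strand, which had counts of their own from strand-specific counting. In F3 control *Asz1* stood ahead of *Tdrd1* and *Piwil4*, at 17.1 ± 4.72 CPM per kilobase, with pools that overlapped those of *Tdrd1*.

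The first question was whether *thia* changed the 10 genes in directly exposed testis. None of them passed the threshold of the study, an FDR of 0.15, in the quasi-likelihood test of edgeR, which called 0.0105% of the 19137 genes tested. At an unadjusted p under 0.05, 3 of the 10 were lower in F1 *thia* and none was higher, against 4.13% of all genes lower. These were *Asz1*, *Ddx4* and *Gtsf1*. DESeq2, with which the authors had tested, called *Asz1* and *Ddx4* lower at the same FDR, against 0.572% of the genes for which it gave an adjusted p. Over the 10 genes 7 fitted differences were negative, with a median log2 fold change of -0.12 against 0.0094 over all genes tested.

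*Asz1*, at chr6:18050964-18109061 on the minus strand, had 53.1, 69.5 and 68.6 CPM in the F1 control pools and 44.0, 40.9 and 38.8 CPM in the F1 *thia* pools. All 3 *thia* pools lay below all 3 control pools, and *Asz1* was the only one of the 10 genes without overlap in the lower direction, against 8.45% of all genes. Its log2 fold change was -0.61 (SE 0.12), a level 0.654 times that of control, with an adjusted p of 0.310 in edgeR and 0.00111 in DESeq2. With F1 control pool 1 left out the log2 fold change was -0.73 (SE 0.10) and the adjusted p 0.110, past the threshold. That fit called 20 of all 19657 genes. *Asz1* was not past the threshold when any of the other 5 pools was left out.

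*Ddx4*, at chr13:112598333-112652475 on the minus strand, had 170.1, 246 and 247 CPM in F1 control and 172, 164 and 138 CPM in F1 *thia*. The highest *thia* pool was just above the lowest control pool, which was pool 1. The log2 fold change was -0.47 (SE 0.15), with an adjusted p of 0.507 in edgeR and 0.128 in DESeq2. *Gtsf1* had 77.8, 70.6 and 79.3 CPM in control and 48.7, 48.5 and 72.3 CPM in *thia*, so that 1 *thia* pool reached the control range. Its log2 fold change was -0.41 (SE 0.15), with an adjusted p of 0.518 in edgeR.

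The other 7 genes did not separate. The PIWI genes had log2 fold changes of -0.24 (SE 0.14) for *Piwil1*, -0.02 (SE 0.13) for *Piwil2* and 0.12 (SE 0.25) for *Piwil4*. *Piwil4* had 86.8 CPM in F1 control pool 1 but 205 and 194 CPM in the other control pools, against 175, 182 and 166 CPM in *thia*, so the control pools spanned the *thia* pools. *Tdrd9* had the highest positive difference, 0.29 (SE 0.13), with 142, 207 and 168 CPM in control and 191, 226 and 210.5 CPM in *thia*. The remaining 3 were *Tdrd1* at -0.17, *Mael* at -0.07 and *Mov10l1* at 0.08 on the log2 scale, and the adjusted p of these 7 genes lay between 0.573 and 0.972 in edgeR.

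**Figure D2:**
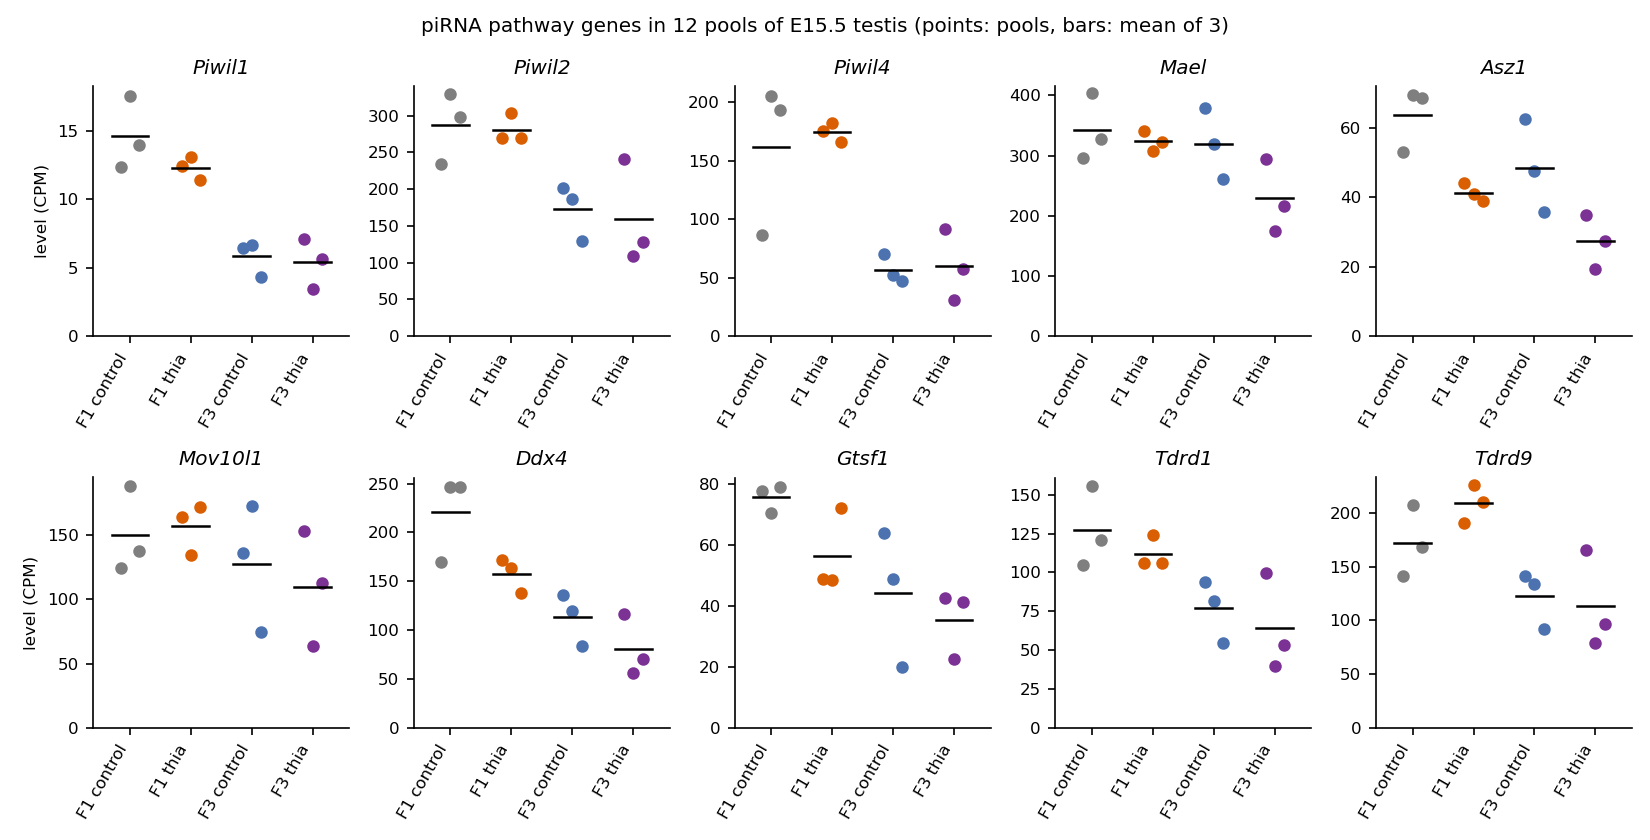
Level of each of the 10 genes (vertical axis, CPM, from 0) in every pool (points) of the 4 groups, with the mean of 3 pools as a bar. The F1 *thia* pools of *Asz1*, at 38.8 to 44.0 CPM, and its F3 *thia* pools, at 19.5 to 35.0 CPM, lay below the control pools of the same generation.

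Germ cell markers moved in the same direction in F1. Their summed level was 811 to 1004 CPM in F1 control and 652 to 791 CPM in F1 *thia*, without overlap, and that of Sertoli cell markers was 1651 to 1803 CPM and 1684 to 1968 CPM. None of the 15 germ cell markers passed the threshold in edgeR, 7 were lower and none higher at an unadjusted p under 0.05 (4.13% of all genes lower), DESeq2 called 4 lower (0.572% of all genes), and no marker of the list was at 0 in all pools. Their median log2 fold change was -0.38, in a range of -1.72 to 0.16, and 13 of the 15 averaged at least 1 CPM over the 12 pools. In a whole testis, fewer germ cells and less RNA per germ cell cannot be told apart. When each gene was instead set against the mean log2 level of the 15 markers in its pool, the pools of *Asz1* overlapped, with a mean log2 difference of -0.18 between *thia* and control, and no gene of the 10 was without overlap in the lower direction, against 0.266% of all genes. *Tdrd9*, *Mov10l1* and *Mael* were then without overlap in the higher direction, with differences of 0.73, 0.51 and 0.36, against 40.5% of all genes on this scale.

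The second question was whether the 10 genes differed in F3, the generation that was not itself exposed. None passed the FDR of 0.1 of the study in edgeR, which called no gene at all in this comparison (0.0% of 18539). The smallest adjusted p of any gene there was 0.1006, just above that threshold. At an unadjusted p under 0.05, *Asz1* and *Mael* were lower and none was higher, 2 of the 10 against 10.0% of all genes lower. DESeq2 called *Asz1* lower and no other gene of the 10, against 5.7% of all genes with an adjusted p. Of the 10 fitted differences 9 were negative, with a median log2 fold change of -0.24 against 0.0044 over all genes.

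*Asz1* had 62.4, 47.4 and 35.7 CPM in F3 control and 35.0, 19.5 and 27.4 CPM in F3 *thia*. As in F1 the groups did not overlap, though the lowest control pool and the highest *thia* pool were close, and it was again the only one of the 10 in that position, against 13.9% of all genes. The log2 fold change was -0.83 (SE 0.25), a level 0.563 times that of control, with an adjusted p of 0.143 in edgeR and 0.0149 in DESeq2. At an FDR of 0.15, the threshold used in F1, it was the 1 gene of the 10 called lower, against 4.78% of all genes. Without F3 control pool 3 and F3 *thia* pool 2 the log2 fold change was -0.81 (SE 0.17) and the adjusted p 0.104, and again none of the 10 genes passed an FDR of 0.1, while 207 of all genes then did. With all 12 libraries in one fit it was -0.83 (SE 0.21), with an adjusted p of 0.0539. *Asz1* passed an FDR of 0.1 in none of the 6 fits that each left out 1 library. Its log2 fold change there ran from -1.06 to -0.61, with an adjusted p of 0.126 to 0.418. With a replicate block the adjusted p in edgeR was 0.189.

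*Mael* had 379, 320.1 and 261 CPM in F3 control and 295, 175 and 217 CPM in F3 *thia*, and the groups overlapped. Its log2 fold change was -0.48 (SE 0.20), with an adjusted p of 0.234, and -0.44 (SE 0.16) without the pool of each group that was lowest in germ cell markers. *Ddx4* differed by as much, -0.48 (SE 0.28), with an adjusted p of 0.367, and its log2 fold change ran from -0.84 without F3 *thia* pool 1 to -0.28 without F3 *thia* pool 2. It had 136, 119 and 83.6 CPM in control and 116, 56.3 and 70.8 CPM in *thia*.

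The remaining 7 genes had log2 fold changes between -0.31, for *Gtsf1*, and 0.09, for *Piwil4*, with standard errors of 0.28 to 0.41 and adjusted p of 0.696 or more. Without F3 control pool 3 and F3 *thia* pool 2, *Gtsf1* was at -0.42 (SE 0.14), with an adjusted p of 0.168, and *Piwil4* at 0.29 (SE 0.23), with an adjusted p of 0.508. Their spread between pools was wide in F3. The F3 *thia* pools held 92.0, 30.6 and 57.3 CPM of *Piwil4* and 241, 109 and 128 CPM of *Piwil2*. All 10 genes were lowest in pool 2 and highest in pool 1 of F3 *thia*, and all 10 were lowest in pool 3 of F3 control. The median SD of log2 CPM over the 10 genes was 0.54 in F3 *thia* and 0.35 in F3 control, against 0.19 and 0.16 over all genes, and in F1 it was 0.11 in *thia* and 0.27 in control.

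**Figure D3:**
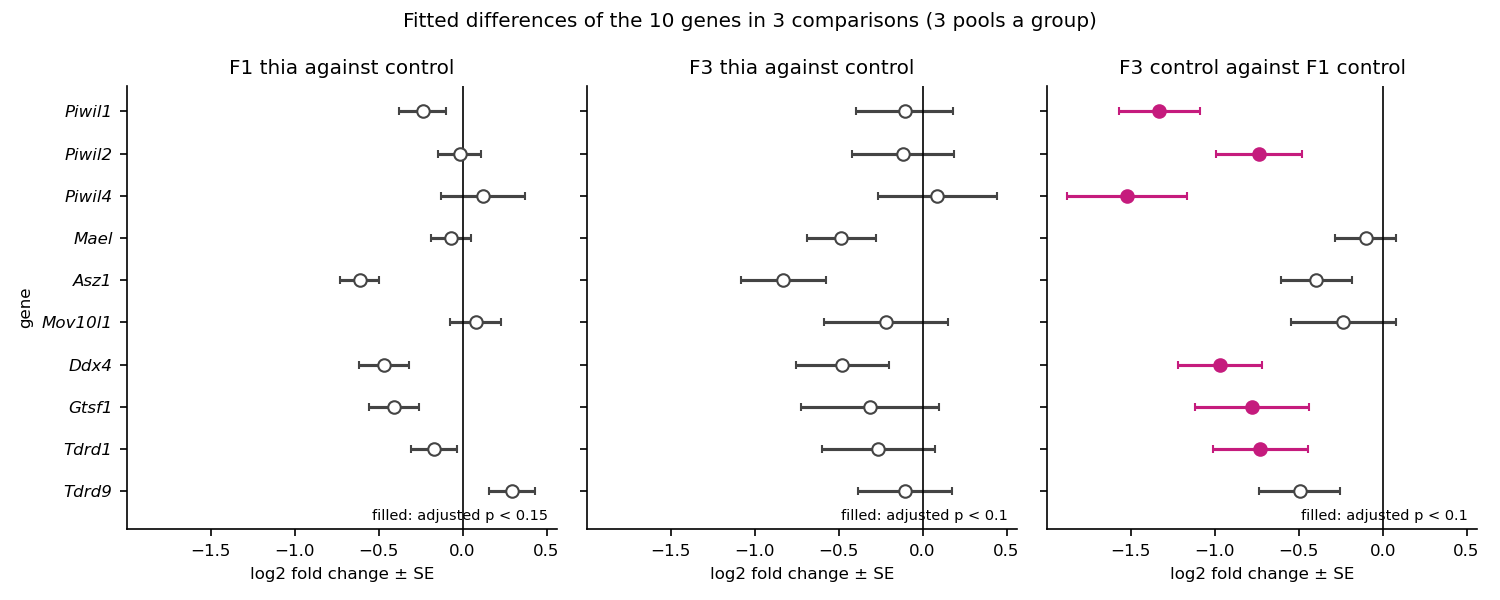
Log2 fold change ± SE (horizontal axis) of the 10 genes in F1 *thia* against control, F3 *thia* against control and F3 control against F1 control, each from edgeR with 3 pools a group. Filled points passed the FDR of the comparison, which none did in the first and second and 6 did in the third, all to the left of 0.

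Other measures varied with the same pools. The summed level of germ cell markers was 699, 575 and 439 CPM in F3 control and 533, 307 and 384 CPM in F3 *thia*, so the lowest pool of each group was the lowest pool of the 10 genes too. F3 *thia* pool 2 also held 75003 CPM of blood genes against 38303 and 43315 CPM in the other *thia* pools, and 796 CPM of Sertoli cell markers against 1225 and 1345 CPM. Its counts differed from those of the other *thia* pools by a chi-square of 90.7 and 101 per degree of freedom, against 36.2 between those pools. Of the 15 markers none passed the threshold in edgeR, 4 were lower and none higher at an unadjusted p under 0.05 (10.0% of all genes lower), and DESeq2 called 3 lower (5.7% of all genes). Their median log2 fold change was -0.35, in a range of -0.98 to 0.45. Set against the mean of these markers, *Asz1* still had no overlap between F3 groups, with a mean log2 difference of -0.43, against 0.631% of all genes lower without overlap on this scale. *Tdrd9* was without overlap in the higher direction at 0.25, against 8.54% of all genes, and the other 8 overlapped. The summed level of 6 Leydig cell markers was 2191 to 3621 CPM in F3 control and 3842 to 6971 CPM in F3 *thia*, and that of 5 endothelial markers was 144 to 164 CPM and 215 to 257 CPM. Without F3 *thia* pool 2 edgeR called 1294 of 18974 genes in F3, and none of the 10. *Asz1* was then at -0.64 (SE 0.22), with an adjusted p of 0.153. The fold changes of *Piwil1*, *Piwil2*, *Mov10l1* and *Tdrd9* were then positive. The part of the marker lists in the result was not tested, nor was the reason for the rise in calls.

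**Figure D4:**
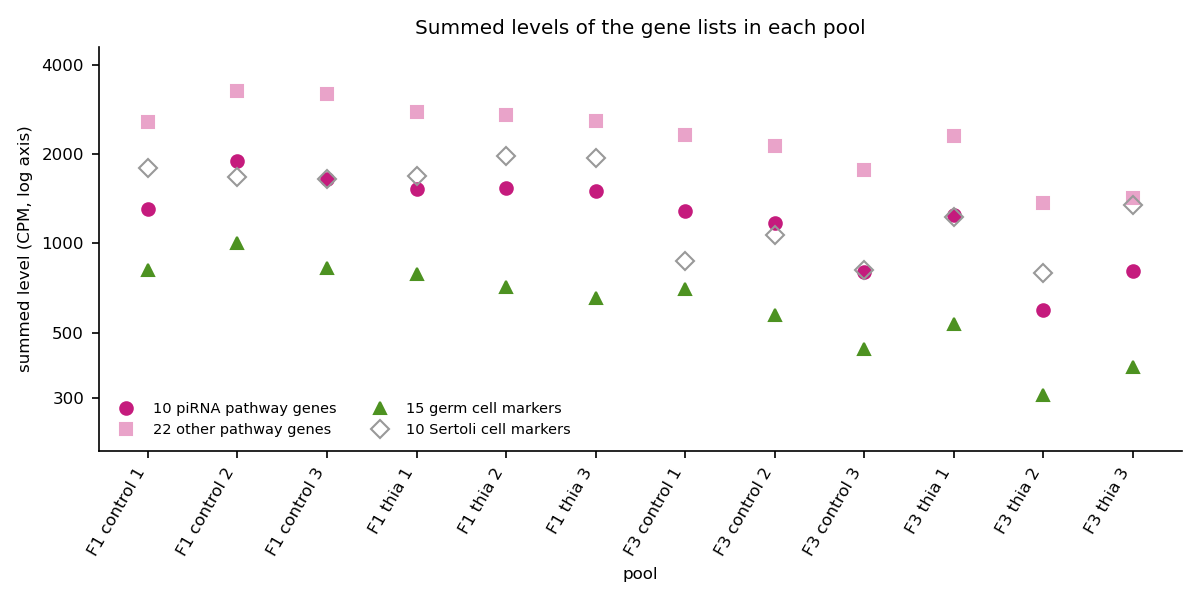
Summed level (vertical log axis, CPM) of the 10 piRNA pathway genes, 22 other pathway genes, 15 germ cell markers and 10 Sertoli cell markers in each of the 12 pools. The 10 genes summed to 1302 to 1894 CPM in F1 control and to 598 to 1247 CPM in F3 *thia*, and they and the germ cell markers were lowest in the same pool of each F3 group.

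The effects in F3 and F1 were then compared by the interaction term of one fit of the 12 libraries. None of the 10 genes differed at an FDR of 0.1 in edgeR, which called 0.0051% of 19626 genes, and none did at an unadjusted p under 0.05, against 14.0% of all genes. DESeq2 called none of the 10, against 4.74% of genes with an adjusted p. The effect in F3 minus that in F1 ranged from -0.40 for *Mael* to 0.15 for *Piwil1* on the log2 scale, with adjusted p of 0.499 or more. For *Asz1* it was -0.20 (SE 0.30), with an adjusted p of 0.800, and for *Ddx4* 0.01 (SE 0.35), with an adjusted p of 0.996.

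Next, the controls of the generations were compared. In F3 control 6 of the 10 genes were lower than in F1 control at an FDR of 0.1 and none was higher, against 42.3% of all genes called in either direction and 22.4% called lower. All 10 fitted differences were negative, with a median log2 fold change of -0.73 against -0.02 over all genes. In 7 of the 10 the F3 pools lay below the F1 pools without overlap, against 25.5% of all genes. DESeq2 also called 6 lower, against 21.3% of all genes, with *Tdrd9* in place of *Gtsf1*. The labels do not give when a pool was bred, dissected or sequenced, and generation cannot be told apart from these.

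*Piwil4* and *Piwil1* had the lowest fold changes of the 10. *Piwil4* had 86.8, 205 and 194 CPM in F1 control and 70.0, 52.0 and 47.1 CPM in F3 control, a log2 fold change of -1.52 (SE 0.36) with an adjusted p of 0.00694. *Piwil1* had 12.4, 17.6 and 14.0 CPM in F1 control and 6.48, 6.66 and 4.36 CPM in F3 control, a log2 fold change of -1.33 (SE 0.24) with an adjusted p of 0.00159. *Piwil2*, with 235, 329 and 298 CPM in F1 control and 201, 187 and 129 CPM in F3 control, had a log2 fold change of -0.74 (SE 0.25) and an adjusted p of 0.0414. No F3 control pool of the 3 PIWI genes reached the range of the F1 controls.

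Among the helicase genes *Ddx4* was lower in F3 control by a log2 fold change of -0.97 (SE 0.25), with an adjusted p of 0.0107. *Tdrd9*, at -0.50 (SE 0.24), and *Mov10l1*, at -0.23 (SE 0.31), did not pass, with adjusted p of 0.133 and 0.596. The scaffold gene *Tdrd1* passed at -0.73 (SE 0.29, adjusted p 0.0671) and *Asz1* did not at -0.39 (SE 0.21, adjusted p 0.169). Of the cofactor genes *Gtsf1* passed at -0.78 (SE 0.34, adjusted p 0.0947), with 64.0, 48.8 and 19.9 CPM in F3 control, and *Mael* did not at -0.10 (SE 0.18, adjusted p 0.703).

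*Piwil1*, *Piwil4* and *Ddx4* passed in all 12 fits that each left out 1 library. *Piwil2* passed in 9 of the 12, with an adjusted p of up to 0.151, *Tdrd1* in 8, with up to 0.221, and *Gtsf1* in 4, with up to 0.242. The number called fell to 3, with *Piwil2*, *Tdrd1* and *Gtsf1* lost, without F1 control pool 2, F1 control pool 3 or F3 control pool 3. Over all genes these fits called 6541 of 19848, 7058 of 20118 and 6243 of 20172, against 8300 of 19626 with every library. Of the 10 genes 4 passed without F3 control pool 2, with *Tdrd1* and *Gtsf1* lost, and 7522 of all 20198 genes did. With *Gtsf1* lost, 5 passed without F1 *thia* pool 1, F1 *thia* pool 2 or F3 *thia* pool 3. Over all genes those fits called 8111 of 19795, 8071 of 20190 and 8233 of 19868. *Tdrd9* took the place of *Gtsf1* without F1 control pool 1, and *Asz1* passed as well without F3 control pool 1. Both *Asz1* and *Tdrd9* did, 8 of the 10 genes in all, without F3 *thia* pool 1 or pool 2. Over all genes these fits called, in the same order, 7700 of 19845, 6591 of 20159, 8602 of 19868 and 8704 of 20163. Without both F3 control pool 3 and F3 *thia* pool 2, 5 of the 10 genes passed, and 7061 of all 20174 genes did. The germ cell marker sum, 811 to 1004 CPM in F1 control and 439 to 699 CPM in F3 control, the Sertoli cell marker sum, 1651 to 1803 and 812 to 1066 CPM, and the blood sum, 4674 to 14256 and 54433 to 59458 CPM, moved with generation too. Relative to the germ cell markers 1 of the 10 genes, *Piwil1*, was without overlap in the lower direction, against 0.785% of all genes. *Mael*, *Mov10l1* and *Asz1* were without overlap in the higher direction, against 49.3%. The median log2 difference of the 10 genes was -0.03 on this scale. Between the controls the markers themselves had a median log2 fold change of -0.45, in a range of -2.45 to 0.67.

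The other pathway genes were a list of 22, among them the tudor genes *Tdrd5*, *Tdrd6* and *Tdrd12*, the trimming genes *Pnldc1* and *Tdrkh* and the transcriptional regulators *Mybl1* and *Btbd18*. None passed the FDR in F1 in edgeR. At an unadjusted p under 0.05, 7 were lower, against 4.13% of all genes, and 1 was higher, against 886 of 19137 genes. DESeq2 called 1, *Tdrd5*, lower, against 0.572% of the genes with an adjusted p. *Tdrd5*, which acts in the processing of piRNA precursors, had 93.4, 130 and 115 CPM in F1 control and 74.0, 77.9 and 67.3 CPM in F1 *thia*. These groups did not overlap, against 8.45% of all genes lower without overlap. The log2 fold change of *Tdrd5* was -0.61 (SE 0.12), with an adjusted p of 0.359 in edgeR and 0.00181 in DESeq2.

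*Tdrd6*, a tudor gene of later germ cell granules, was the one that was higher, with a log2 fold change of 1.28 (SE 0.32) and an adjusted p of 0.446. It was barely detected, at 0.371 to 0.394 CPM in F1 control and 0.595 to 1.11 CPM in F1 *thia*, from 10 to 73 counts a pool. *Rnf17*, another tudor gene, was at -0.41 (SE 0.15), *Btbd18*, a regulator of pachytene piRNA transcription, at -0.41 (SE 0.15), and *Stk31*, which encodes a tudor-domain kinase, at -0.38 (SE 0.15), with adjusted p of 0.518 to 0.553. *Tdrkh*, *Mybl1* and *Morc1* made up the 7 that were lower.

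In F3 1 of the 22 was lower at an unadjusted p under 0.05, against 10.0% of all genes, and none passed the FDR in edgeR, while 21 of the 22 differences were negative, with a median log2 fold change of -0.29. The one was *Tdrd12*, a partner in secondary piRNA production, at 12.3, 11.8 and 9.72 CPM in F3 control and 9.14, 4.60 and 6.23 CPM in F3 *thia*. The groups did not overlap, against 13.9% of all genes lower without overlap. The log2 fold change was -0.76 (SE 0.25), and the adjusted p was 0.155 in edgeR and 0.0292 in DESeq2. The trimming nuclease gene *Pnldc1*, at -0.61 (SE 0.30), *Gpat2* at -0.52 (SE 0.28), *Stk31* at -0.70 (SE 0.39) and *Henmt1*, the methyltransferase that caps the 3′ end of piRNAs, at -0.57 (SE 0.32) had the next smallest p-values, with adjusted p of 0.283 to 0.354.

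Between the controls 12 of the 22 were lower in F3, against 22.4% of all genes. In edgeR 1, *Tdrd6*, was higher, against 3912 of 19626 genes, but it did not pass in DESeq2, where its adjusted p was 0.113. *Mybl1*, the transcription factor of pachytene piRNA clusters, had a log2 fold change of -1.01 (SE 0.19) and an adjusted p of 0.00207, and *Btbd18* one of -1.05 (SE 0.22) and an adjusted p of 0.00407. *Tdrd5* was at -1.20 (SE 0.31), with an adjusted p of 0.0111. The others that were lower were *Tdrd7*, *Tdrkh*, *Rnf17*, *Pld6*, *Prmt5*, *Hsp90aa1*, *Stk31*, *Tex15* and *Spocd1*, with log2 fold changes between -0.92 and -0.23. Of these *Stk31* and *Spocd1* did not pass in DESeq2, with adjusted p of 0.111 and 0.162. DESeq2 called 12 lower too, with *Pnldc1* and *Fkbp6* in their place, against 21.3% of all genes.

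Across the 12 pools the mean profile of the 10 genes, as log2 CPM centred on each gene, ran from 0.72 in F1 control pool 2 to -1.12 in F3 *thia* pool 2. *Tdrd1* and *Piwil2* followed it most closely, with root mean square differences of 0.0963 and 0.113, and *Piwil4* least, with 0.460. Of 3411 other genes that varied at least as much as this profile, *Zbtb43*, a zinc-finger gene, was the most alike, with a root mean square difference of 0.0691 over the 12 pools. It was followed by *Tcfl5*, a gene for a helix-loop-helix factor, at 0.111, *Arl14epl* at 0.122, *Fam169a* at 0.152 and *Brdt*, a bromodomain gene of the testis, at 0.157. *Zbtb43* averaged 163, 148, 97.1 and 80.7 CPM in F1 control, F1 *thia*, F3 control and F3 *thia*. The pools share their depth and tissue makeup across genes, so likeness here describes these libraries.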

How the data were processed

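RNA from 12 pools of 3 embryonic testes was prepared with a directional library kit and sequenced as pairs. After base calling with bcl2fastq 2.20.0.422, alignment by the authors used HISAT2 2.1.0 and mm10, and featureCounts with the reverse-strand setting assigned reads to refGene genes, so the deposited values are raw counts per gene symbol. Their own comparisons were made with DESeq2 2.11.40.7. Whether pairs or single reads were counted is not given in the sources used here.

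The 10 genes and the lists of other pathway genes and markers were chosen with earlier results of these data known. The fits used edgeR 4.0.16 and limma 3.58.1, with DESeq2 1.42.0 as an alternative, under R 4.3.3. Python 3.11.15 served for tables and figures. Genes were kept by filterByExpr at a minimum count of 10, and the 10 genes and all 22 others passed in every comparison. Scaling was by TMM, with a prior count of 2 for log2 CPM. The quasi-likelihood F-test of edgeR compared the groups, with p-values adjusted over all genes tested by Benjamini-Hochberg, at an FDR of 0.15 in F1 and 0.1 elsewhere. F1 and F3 were fitted on their own 6 libraries, and the difference of effects and the controls on all 12. Standard errors were computed from the F statistic of that test, and the procedure was tested on simulated data. DESeq2 ran on unfiltered counts.

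Exon lengths and gene positions came from GENCODE M21 on GRCm38, in which all 10 genes and 26708 of the 35976 symbols were matched, and promoters from RefSeq. No replicate was identical to another. Same-numbered pools did not deviate together, with correlations of -0.37 to 0.19, so the replicate number was not taken as a pairing. The rule for named genes was all 10 members, the 5 other pathway genes with the smallest p in F1 and in F3 and those past a threshold, and the 5 genes most alike in profile. Alternatives were DESeq2, its size factors, upper quartile scaling, no filter, an FDR of 0.15 in F3, one fit of all libraries, a replicate block, scaling to germ cell markers and leaving out each library. Leaving out blood genes, and F3 control pool 3 with F3 *thia* pool 2, were added after seeing the data.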

Additional observations from a re-analysis of the deposited data

How the results depend on the processing

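Over the 10 genes, 402 of the log2 fold changes recomputed under an alternative were counted as unchanged, by direction and side of the threshold. Another 15 newly passed it, 20 no longer did and 25 turned direction. The last 18 came from scaling to the germ cell markers and moved by their standard error or more. On that scale only the size of the move was judged, so directions that turned there are not among the 25. They turned for *Piwil1*, *Piwil2*, *Mael* and *Tdrd1* in F1. In F3 they turned for *Piwil1*, *Piwil2*, *Mov10l1*, *Gtsf1*, *Tdrd1* and *Tdrd9*. In F1 the number of the 10 genes called rose from 0 to 2, *Asz1* and *Ddx4*, with DESeq2 and to 2 with no filter, and was 0 to 1 when 1 library was left out. In F3 it rose from 0 to 1, *Asz1*, at an FDR of 0.15, with DESeq2, where it was also 1, and with all 12 libraries in one fit, again 1. The difference of effects had none called under any alternative. Between the controls the number, 6, was 4 with upper quartile scaling, 7 with no filter and 3 to 8 when 1 library was left out. It was 5 without F3 control pool 3 and F3 *thia* pool 2, an alternative chosen after seeing the data. Over all genes the calls were 8300 of 19626 in the main fit, 8245 of 19626 with upper quartile scaling and 7649 of 32200 with no filter. They were 6243 to 8704 when 1 library was left out. Leaving out blood genes, also chosen after seeing the data, changed no count of the 10 genes. The number of all genes called in F3 was 0 with edgeR, 520 with upper quartile scaling and 569 with no filter. It was 1936 in one fit of all libraries and 2262 with DESeq2. With 1 F3 library left out it was 1294 without F3 *thia* pool 2 and 0 to 2 without any other. In F1 it was 2 with edgeR, 243 with no filter and 201 with DESeq2. With 1 F1 library left out it was 20 without F1 control pool 1 and 0 to 3 without any other. The cause of these differences was not tested. With a replicate block the number of the 10 genes called was 0 in F1, 0 in F3 and 0 for the difference of effects. Between the controls it was 5, against 7713 of all 19626 genes. Not every pool correlated best with its own number.

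Directions that turned were those of small fold changes that passed no threshold. In F1 *Piwil2* was at 0.0033 with upper quartile scaling, and with 1 library left out *Piwil2* lay between -0.15 and 0.090, *Piwil4* between -0.18 and 0.33, *Mael* between -0.16 and 0.067 and *Mov10l1* between -0.044 and 0.28. In F3 *Piwil4* was at -0.023 with the replicate block, and with 1 library left out *Piwil1* lay between -0.36 and 0.13, *Piwil2* between -0.55 and 0.093, *Piwil4* between -0.37 and 0.40, *Mov10l1* between -0.54 and 0.059, *Gtsf1* between -0.66 and 0.049 and *Tdrd9* between -0.49 and 0.10. Between the controls *Mael* lay between -0.23 and 0.034 and *Mov10l1* between -0.51 and 0.038, and without F3 control pool 3 and F3 *thia* pool 2 they were at 0.025 and 0.037. Of the 10 genes only *Piwil1* had fewer than 676 counts in any pool.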

Other observations

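The balance between the PIWI genes was described by ratios. Per exon length, the level of *Piwil4* relative to that of *Piwil2* was 0.363, 0.613 and 0.639 in the F1 control pools and 0.639, 0.589 and 0.606 in F1 *thia*, against 0.342, 0.273 and 0.358 in F3 control and 0.375, 0.276 and 0.440 in F3 *thia*. The F3 control pools lay below all F1 control pools, of which pool 1 stood close to them, and *thia* and control overlapped in both generations. The level of *Piwil1* relative to that of *Piwil2* was 0.0639, 0.0648 and 0.0569 in F1 control and 0.0559, 0.0524 and 0.0514 in F1 *thia*. The *thia* pools lay below the control pools there, though the highest *thia* pool was close to the lowest control pool. It was 0.0391, 0.0433 and 0.0409 in F3 control and 0.0358, 0.0384 and 0.0538 in F3 *thia*, where the groups overlapped. These ratios were chosen for description after values of the genes had been seen, and no test was made of them.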
